A study of Mus musculus with 18 samples.

Results

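Tumor cells of the EA1 and EA2 lines recovered from mouse lungs were compared gene by gene in 10 libraries, 5 of EA1 in vivo and 5 of EA2 in vivo, out of 18 libraries of these lines that were analysed. Both are murine lung cancer cell lines driven by the Eml4-Alk fusion. According to the methods of the study EA1 is p53 wild type and EA2 is p53 null, so that each genotype is represented by 1 cell line, and the effect of p53 cannot be told apart from any other difference of the lines. The hosts of both lines were adult male C57BL/6 mice whose own cells express GFP. Cells were injected into the left lobe of the lung, with a larger inoculum for EA2. After 4 weeks the left lungs were dissociated and cells without GFP were collected by FACS, and since 3 to 5 mice went into a suspension, a library is a pool of animals. The remaining 8 libraries, 5 of EA1 and 3 of EA2, came from cells passaged in culture in parallel (in vitro). No library received a drug.

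Eml4-Alk joins a partner that self-associates to the kinase domain of the receptor tyrosine kinase Alk, which is then active without ligand and signals through the ERK, PI3K and STAT3 pathways. Lung adenocarcinoma arises from epithelial cells of the alveoli and small airways. Its cells can keep epithelial features such as E-cadherin junctions and keratins, take on programs of gut epithelium, or lose them for mesenchymal features. Interferon gamma from lymphocytes induces guanylate-binding proteins, immunity-related GTPases and the machinery that loads peptides on MHC class I in tumor cells.

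The values were gene-level FPKM (fragments of a gene relative to the length of its transcript and to all mapped fragments of the library), deposited as a separate table per line. A gene entered the comparison when it had a number in both tables and at least 1 FPKM in all 5 in vivo libraries of at least one line, which held for 11246 of the 24269 genes in both tables. Each in vivo library was divided by a scaling factor, the median ratio of its genes to their geometric mean over the 10 libraries, and these factors lay between 0.93 and 1.10. A gene was called when the difference of the group means of log2(scaled FPKM + 1) was at least 2, the higher group had a mean of at least 5 scaled FPKM, and the 5 and 5 libraries overlapped neither in scaled FPKM nor in rank within the library. No p-value was computed between the lines, because line and table cannot be told apart. Levels below are FPKM as deposited, in the order of libraries 1 to 5, and differences are log2 differences of scaled values, EA1 minus EA2, with the standard error over the 5 and 5 libraries. The pseudocount understates the difference of genes near 0.

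Libraries of the same line resembled each other. The Spearman correlation over the 11246 genes was 0.917 to 0.990 for pairs of EA1 in vivo libraries, 0.949 to 0.982 for pairs of EA2 in vivo libraries and 0.729 to 0.837 between the lines. EA1 in vivo library 4 stood apart from the other EA1 libraries in many of the genes described here, with lower levels of epithelial and Reg family genes and higher levels of collagen and interferon genes. Removing that library raised the counts of called genes from 698 to 764 and from 173 to 200. Markers of host cell types were present at low to moderate levels and differed between the lines, and some were also present in culture. Ptprc, the leukocyte antigen CD45, stayed below 1 FPKM in all 10 libraries. The 6 general leukocyte markers, Ptprc among them, summed to 46.3 to 103 FPKM in EA1 and 2.26 to 95.3 in EA2, and the 11 endothelial markers to 32.4 to 86.2 and 1.57 to 21.1 without overlap. The summed level of 18 macrophage markers was 150.0 to 335 FPKM in EA1 and 42.0 to 173 in EA2. The 3 club cell markers summed to 246 to 939 FPKM in EA1 and 14.9 to 166 in EA2, and the 6 alveolar type 2 markers to 47.6 to 229 and 1.80 to 22.9. The 15 fibroblast markers summed to 359 to 3201 FPKM in EA1, highest in library 4, and 412 to 1007 in EA2. Fewer cells of a type and less RNA per cell cannot be told apart in bulk libraries, and the part of host cells in the differences was not tested.

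A total of 698 genes were called higher in EA1 tumor cells and 173 higher in EA2 tumor cells, which is 6.21% and 1.54% of the genes entered. The counts of called genes in the lists below are to be read against these shares. Of the genes entered, 1229 entered through EA1 alone and 463 through EA2 alone. Such a gene was under 1 FPKM in at least 1 library of the other line, so lists rich in such genes exceed these shares more easily. For several lists the count among genes with at least 1 FPKM in all 10 libraries is therefore given as well. Groups that did not overlap were far more frequent than calls, at 2418 genes higher in EA1 and 2514 higher in EA2, together 43.9% of the genes entered. The median difference over all genes entered was 0.07. Among the 9554 genes with at least 1 FPKM in all 10 libraries, 181 were called higher in EA1 and 70 higher in EA2. Of the genes called higher in EA1, 95 were below 0.1 FPKM in every EA2 library, and of those called higher in EA2, 16 were below 0.1 FPKM in every EA1 library. With a difference of at least 1 in place of 2 the counts were 1313 and 651, and with the libraries scaled to an equal sum the EA2 count was 312 in place of 173.

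**Figure D1:**
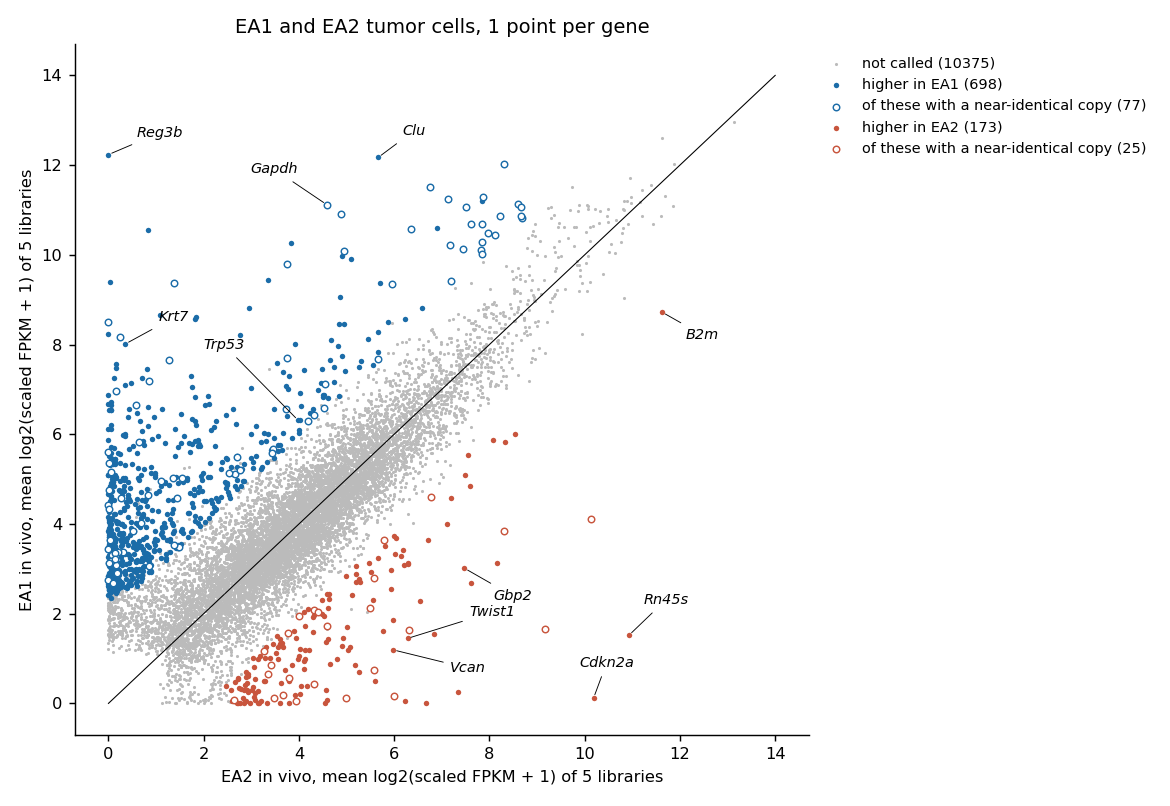
Mean level of each of the 11246 genes in EA2 (horizontal axis) and EA1 (vertical axis) tumor cells, as log2(scaled FPKM + 1) over 5 libraries each. Blue points mark the 698 genes called higher in EA1, red points the 173 called higher in EA2, open circles the called genes with a near-identical copy elsewhere in the genome, and the line marks equal levels.

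Genes that share their sequence with other loci took a place among the extremes. A near-identical copy elsewhere in the genome (at least 95% identity over at least 80% of the shorter transcript) was found for 1055 of the genes entered, or 9.38%, and for 11.7% of the called genes (77 higher in EA1 and 25 higher in EA2). Gapdh, the glycolytic enzyme whose processed copies number 41 here, was at 1816, 2216, 2416, 2154 and 2073 FPKM in EA1 and 10.7, 20.6, 51.9, 22.2 and 30.6 FPKM in EA2. The ribosomal protein gene Rpl29, with 33 copies, was at 609, 635, 694, 649.8 and 599 FPKM in EA1 and 0.987, 1.36, 3.25, 3.21 and 0.61 FPKM in EA2. The differences were 6.54 for Gapdh and 8.01 for Rpl29 in vivo, and 7.35 and 7.92 in vitro. Of 81 genes of cytosolic ribosomal proteins, 74 with a copy, 22 were called higher in EA1 and none higher in EA2. The ribosomal RNA precursor Rn45s went the other way, at 1.27, 1.67, 2.52, 1.39 and 2.28 FPKM in EA1 and 1166, 2791, 1050.1, 2683 and 3876 FPKM in EA2. No source used here states how each table treated fragments that map to several loci, so that for such genes the tables and the lines cannot be told apart. Without genes for which a copy was found, 621 genes were called higher in EA1 and 148 higher in EA2. The search covered annotated transcripts of coding genes and pseudogenes of at least 200 bases. It found no copy for Rn45s and Rplp2-ps1, which remain among the 148, so this count is not free of shared sequences. None of the genes described from here on has a copy by this search unless this is stated.

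Trp53 and a small number of its targets were called higher in EA1, the line described as p53 wild type. Trp53, the gene of the tumor suppressor p53 at chr11:69580359-69591873 of GRCm38, was at 76.6, 82.4, 85.5, 55.5 and 78.5 FPKM in EA1 and 14.9, 17.6, 16.9, 17.4 and 11.6 FPKM in EA2. Every EA1 library was above every EA2 library and the difference was 2.33 ± 0.15. Trp53 transcript was thus present in EA2 tumor cells at 15.7 ± 2.52 FPKM (SD, n = 5), and a gene-level value does not show which exons its fragments cover. In vitro the level of Trp53 was 129 ± 3.48 FPKM (SD, n = 5) in EA1 and 45.9, 31.5 and 40.4 FPKM in the 3 EA2 libraries, a difference of 1.45 that was below the size required for a call.

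Cdkn1a, the gene of the cell cycle inhibitor p21 and a direct p53 target, was at 66.9, 57.9, 55.6, 47.3 and 44 FPKM in EA1 and 10.4, 6.09, 6.38, 15.1 and 11 FPKM in EA2. All EA1 libraries lay above all EA2 libraries, by 2.53 ± 0.26, and the in vitro libraries gave a call in the same direction with a difference of 2.50. Perp, a p53 target that serves in desmosomes, was at 46.1, 74.8, 74.7, 38.1 and 55.4 FPKM in EA1 and 0.514, 1.17, 0.376, 4.75 and 0 FPKM in EA2, and Btg2, an antiproliferative p53 target, differed by 3.94 ± 0.54. Mdm2, the ubiquitin ligase that degrades p53 and is itself its target, was at 17.3, 18.9, 16.4, 19.2 and 17.5 FPKM in EA1 and 15.9, 13.9, 16.7, 16.3 and 14.7 FPKM in EA2 and was not called. Of 39 listed p53 targets that entered, 5 were called higher in EA1 and none higher in EA2, against 6.21% and 1.54% of all genes entered. Of the called targets, Perp is also a called gene of the epithelial adhesion list below. The median difference of the list was 0.60, 34 of the 39 differences were positive, and by ranks alone the count was 3 in place of 5.

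The largest difference toward EA2 lay at the Cdkn2a locus, which encodes the inhibitors p16 and p19Arf. Cdkn2a (chr4:89274471-89294653) was at 0.01, 0.116, 0.0492, 0.01 and 0.269 FPKM in EA1, where 0.01 is the lowest value of the table, and at 1286, 1415, 1096, 1229.8 and 1096 FPKM in EA2. Its neighbour Cdkn2b (chr4:89306299-89311039), the gene of the inhibitor p15, was at 0.0654, 0.141, 0.287, 0.106 and 0.341 FPKM in EA1 and 172, 159.9, 170.1, 157 and 181 FPKM in EA2. The differences were −10.07 ± 0.09 and −7.08 ± 0.08, and in vitro all 5 EA1 libraries had both genes at 0.01 FPKM while the 3 EA2 libraries had 691 to 924 FPKM of Cdkn2a and 221 to 342 FPKM of Cdkn2b.

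Genes on one side of the locus, toward lower coordinates, were expressed in EA1. Mtap (chr4:89137122-89181081), the gene of a methionine salvage enzyme on that side, was at 144, 125, 145, 162 and 158 FPKM in EA1 and 159.6, 117, 115, 84.3 and 135 FPKM in EA2, with overlapping libraries. Klhl9, the gene of a ubiquitin ligase adaptor farther away on the same side, was at 13.7, 14.9, 14.6, 13.7 and 15.3 FPKM in EA1 and 64, 65.8, 69, 49.6 and 62.7 FPKM in EA2, a difference of −1.90 ± 0.09 that was not called. DNA was not measured, and whether EA1 lacks these genes was not tested. Among the 18 listed genes of the p53, RB and related tumor suppressor loci, Trp53, Cdkn2a and Cdkn2b were the called ones.

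Both lines expressed the genes joined by the fusion. Alk was at 14.3, 16.2, 16.4, 9.61 and 14.5 FPKM in EA1 and 23.3, 22.8, 20, 18.6 and 21.5 FPKM in EA2, and Eml4 at 11.6, 13, 12.2, 8.78 and 12.8 FPKM in EA1 and 27.7, 27.9, 26.7, 19.1 and 31.4 FPKM in EA2. All EA2 libraries were above all EA1 libraries in FPKM for both genes, by −0.44 ± 0.15 and −0.99 ± 0.16, short of the size required for a call. EA1 library 4 held the lowest value of each. Of 23 genes of ERK feedback and ETS factors, 1 was called: Spry1, a feedback inhibitor of receptor tyrosine kinase signaling, at 107, 52, 48.2, 111 and 75.1 FPKM in EA1 and 1.77, 3.18, 2.01, 5.54 and 1.86 FPKM in EA2.

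Sex-linked transcripts separated the lines. Xist, the RNA that silences an X chromosome in female cells, was at 19.9, 17.4, 14.3, 19.1 and 17.6 FPKM in EA1 and at most 0.013 FPKM in EA2. The Y-linked helicase gene Ddx3y was at 0.0893, 0.183, 0.145, 0.106 and 0.321 FPKM in EA1 and 6.94, 2.74, 10.2, 10 and 13.4 FPKM in EA2. In vitro Ddx3y was at the lowest value of 0.01 FPKM in all 5 EA1 libraries. The hosts were male, and the part of host cells in the low in vivo values of Ddx3y in EA1 was not tested.

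**Figure D2:**
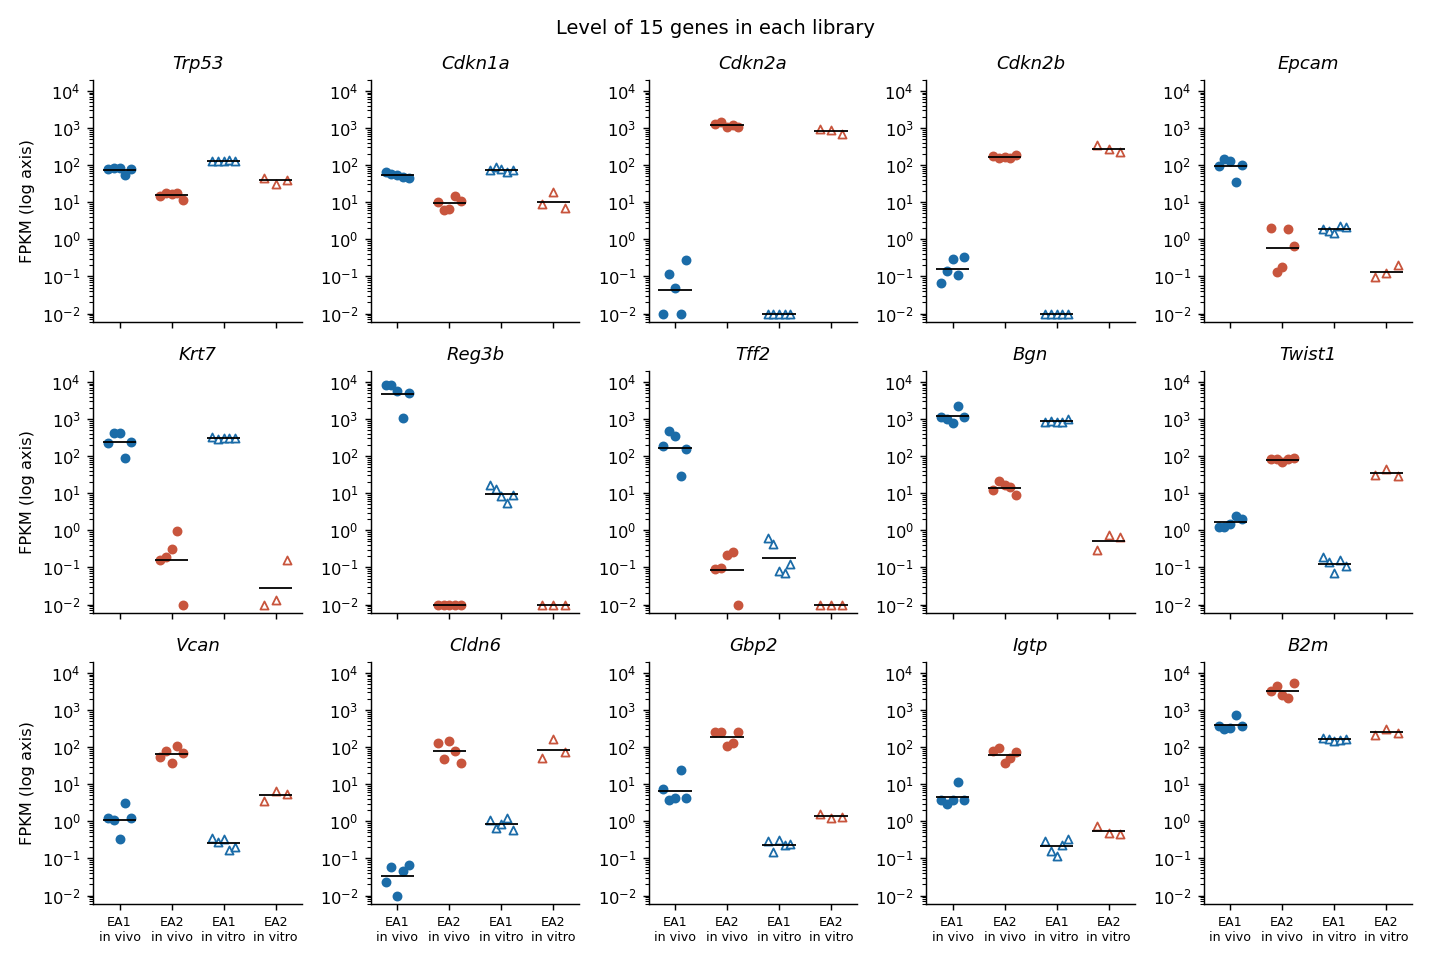
Level of 15 genes in each library in FPKM as deposited, on a log axis, for EA1 (blue) and EA2 (red) in vivo (filled circles) and in vitro (open triangles). Horizontal bars are geometric means and values of 0 are drawn at 0.01, and for each gene the 5 EA1 and 5 EA2 in vivo libraries do not overlap.

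With 1 exception, the calls among epithelial adhesion genes and keratins lay toward EA1. Of 33 genes of epithelial adhesion, claudins and tight junctions that entered, 21 were called higher in EA1 and 1 higher in EA2, with a median difference of 2.56 against 0.07 over all genes. Only 12 of the 33 had at least 1 FPKM in all 10 libraries, and the rest entered through 1 line alone. Of these 12, 3 were called higher in EA1 and none higher in EA2, with a median of 1.12. Of 10 keratins 7 were called higher in EA1, with a median of 4.71, and of the 2 with at least 1 FPKM in all 10 libraries 1 was called. Epcam (chr17:87635979-87651129), the epithelial cell adhesion molecule, was at 94, 150.4, 126, 35.5 and 102 FPKM in EA1 and 2.04, 0.132, 0.174, 1.94 and 0.656 FPKM in EA2. Library 4 was the lowest of EA1 and was still above every EA2 library, and the difference was 5.77 ± 0.47. Krt7 (chr15:101411043-101430313), a keratin of simple and glandular epithelia, was at 227, 422, 418, 91.2 and 245 FPKM in EA1 and 0.163, 0.195, 0.319, 0.974 and 0 FPKM in EA2.

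Cdh1, the gene of E-cadherin, remained expressed in EA2, at 22.5, 23, 22.3, 23.3 and 5.05 FPKM, against 168, 247, 257, 62.4 and 173 FPKM in EA1. The lines did not overlap and differed by 3.31 ± 0.53. Krt8, which has 1 near-identical copy elsewhere, was at 895, 1049, 1078, 493 and 878 FPKM in EA1 and 3.78, 22.3, 69.7, 41.4 and 0.583 FPKM in EA2 and spread widely among the EA2 libraries. Krt14, Krt19 and Krt20, a basal, a simple epithelial and an intestinal keratin, differed by 5.43 ± 0.37, 5.07 ± 0.66 and 5.62 ± 0.62. Prom1, which marks apical membrane protrusions, was at 113, 173, 136, 28.8 and 123 FPKM in EA1 and at most 0.129 FPKM in EA2. The tricellular junction gene Lsr was at 108, 179.7, 178, 34.6 and 118 FPKM in EA1 and 2.67, 0.909, 1.85, 21.4 and 0.371 FPKM in EA2, where library 4 was the highest.

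A single claudin ran against the group. Cldn6, a claudin of embryonic epithelia, was at 0.0231, 0.0599, 0.01, 0.0459 and 0.0675 FPKM in EA1 and 129, 48.7, 147, 79 and 38.3 FPKM in EA2, a difference of −6.17 ± 0.36 that was also called in vitro.

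Of 21 listed lung lineage transcription factors, 10 were called higher in EA1 and none higher in EA2. Among the 11 with at least 1 FPKM in all 10 libraries, 2 were called higher in EA1. The median of these 11 was 0.41, against 1.69 for the 21. Nkx2-1, the lineage factor of lung epithelium, stayed at or below 0.724 FPKM in all 10 libraries and did not enter. Elf3, an ETS factor of epithelial cells, was at 97.6, 136, 91.3, 25.6 and 97.8 FPKM in EA1 and 0.543, 0.22, 0.0655, 0.914 and 0.174 FPKM in EA2. Hnf4a, a nuclear receptor of gut and liver epithelium, was at 77.7, 89.8, 89.5, 24.9 and 70.8 FPKM in EA1 and 1.35, 3.23, 4.42, 20.1 and 0.78 FPKM in EA2, and EA2 library 4 came close to EA1 library 4. Irx2 and Ehf, a homeobox and an ETS factor, were below 0.4 FPKM in every EA2 library and at 5.19 to 28.1 FPKM in EA1.

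Reg3b had the largest difference toward EA1 of all genes entered, 12.23 ± 0.56. Reg3b (chr6:78370657-78373466), an antimicrobial lectin of the gut, was at 8207, 8184, 5802, 1040.0 and 5089 FPKM in EA1 and was listed at 0 in all 5 EA2 libraries. Its neighbours Reg3g and Reg1, of the same family, were at 2663, 2503, 1514, 373 and 1638 FPKM and 465, 523, 335, 60.1 and 390.3 FPKM in EA1, and at no more than 2.79 FPKM in EA2. Library 4 held the lowest EA1 value for each of them. The trefoil factors Tff1, Tff2 and Tff3, which protect mucosal surfaces, were at 25.1 to 213, 28.4 to 488 and 10.5 to 126 FPKM in EA1 and at or below 0.261 FPKM in EA2. The galectin Lgals4 of the gut was at 564, 645, 511, 108 and 418 FPKM in EA1 and 0.208, 2.63, 1.44, 2.6 and 0.221 FPKM in EA2. Muc13, a transmembrane mucin, was at 201, 207, 136, 44.1 and 144 FPKM in EA1 and 0.0119, 0.164, 0.365, 1.16 and 0.0128 FPKM in EA2.

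Crisp1, a cysteine-rich secretory protein, was at 478, 1218, 1429, 179.9 and 720.4 FPKM in EA1, and Mmp7, the epithelial protease matrilysin, was at 147, 99.1, 107, 49.1 and 109 FPKM in EA1. Both were at or below 0.118 FPKM in every EA2 library. Of 16 airway secretory and mucin genes 8 were called higher in EA1 and 1 higher in EA2, with a median of 2.97. Among the 4 with at least 1 FPKM in all 10 libraries, 1 was called higher in each line, with a median of 0.71. Scgb1a1, the club cell secretoglobin, was at 296, 286, 887, 239 and 232 FPKM in EA1 and 28.2, 10.3, 34.6, 152 and 18.7 FPKM in EA2, with at most 0.945 FPKM summed over the 3 club cell markers in any culture. Library 3 was the highest of EA1 for Scgb1a1 and for the alveolar marker Sftpc (20.5, 39.7, 174, 73.2 and 35.8 FPKM), whereas Reg3b was highest in libraries 1 and 2. The part of lung cells of the host in the airway and surfactant genes was not tested.

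Promoter sequences are shown for Epcam and Krt7, which carry the epithelial difference, because the letters CAGGTG form the E-box bound by the repressors of the ZEB and SNAI families. RefSeq windows from 250 bases before to 50 bases after the start (GRCm38.p6) were matched for 446 of the 621 genes called higher in EA1 without a copy and for 95 of the 148 called higher in EA2. On either strand CAGGTG was found in 28.9% of the 591 promoters of the EA1 genes, 12.4% of the 129 promoters of the EA2 genes, 17.1% of the promoters of all genes entered and 20.2% of all promoters of the table. Capitals mark CAGGTG, which reads CACCTG where it lies on the other strand, in Epcam (chr17:87635729-87636028) and Krt7 (chr15:101412153-101412452).
Epcam: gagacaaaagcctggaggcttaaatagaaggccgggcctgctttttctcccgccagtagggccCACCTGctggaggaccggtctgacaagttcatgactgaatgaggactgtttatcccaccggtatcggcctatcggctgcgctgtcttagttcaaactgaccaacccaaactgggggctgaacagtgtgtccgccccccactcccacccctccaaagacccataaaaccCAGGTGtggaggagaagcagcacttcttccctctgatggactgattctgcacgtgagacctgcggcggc
Krt7: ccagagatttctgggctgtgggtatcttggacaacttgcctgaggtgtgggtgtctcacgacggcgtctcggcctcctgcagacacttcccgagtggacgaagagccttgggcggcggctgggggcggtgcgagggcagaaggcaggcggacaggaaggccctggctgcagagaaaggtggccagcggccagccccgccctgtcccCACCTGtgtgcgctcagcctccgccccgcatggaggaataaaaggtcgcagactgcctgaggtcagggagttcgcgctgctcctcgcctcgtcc

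Genes of mesenchymal identity did not move as a group. Of 29 listed mesenchymal and transition genes, 4 were called higher in EA1 and 3 higher in EA2, with a median of −0.08. Vim, the intermediate filament vimentin, was at 1342, 1388, 1488, 2349.5 and 1474 FPKM in EA1 and 2327, 1955, 2028, 1945 and 1878 FPKM in EA2, with overlapping libraries, and Cdh2, the gene of N-cadherin, differed by −1.26 ± 0.30 and was not called. The 3 genes called higher in EA2 were clear-cut. Twist1 (chr12:33957671-33959829), a transcription factor of the mesenchyme, was at 1.25, 1.25, 1.48, 2.44 and 2.06 FPKM in EA1 and 82.1, 82.5, 69.3, 81.3 and 87.3 FPKM in EA2. Prrx1, a homeobox factor of limb and stromal mesenchyme, was at 0.37, 1.16, 0.403, 1.57 and 1.21 FPKM in EA1 and 15, 14.7, 18.9, 30.3 and 11.4 FPKM in EA2. The tropomyosin gene Tpm2 was at 1.86, 3.27, 2.31, 2.99 and 2.29 FPKM in EA1 and 64, 62.3, 70, 55.3 and 73.8 FPKM in EA2, and all 3 were called in the same direction in vitro.

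With 1 exception, the called extracellular matrix genes were higher in EA1. Of 33 proteoglycans and other matrix proteins, 23 had at least 1 FPKM in all 10 libraries. Among these 23, 3 were called higher in EA1 and none higher in EA2, with a median of −0.03 against 0.81 for the 33. Of all 33, 12 were called higher in EA1 and 1 higher in EA2. The latter was Vcan (chr13:89655312-89742509), the large proteoglycan versican, at 1.21, 1.09, 0.33, 3.16 and 1.2 FPKM in EA1 and 54, 76.5, 37.7, 104 and 71.3 FPKM in EA2. Bgn, the small proteoglycan biglycan, was at 1148, 992, 792, 2192 and 1105 FPKM in EA1 and 12.1, 21.1, 16.3, 14.4 and 8.73 FPKM in EA2, and was high in cultured EA1 as well, at 876 ± 80.4 FPKM (SD, n = 5). Eln, the gene of elastin, was at 63.6, 187, 123, 243 and 124 FPKM in EA1 and 0.0441, 0.057, 0.686, 2 and 0 FPKM in EA2. In cultured EA1 Eln was at 0.189 ± 0.0478 FPKM (SD, n = 5).

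Some of the matrix genes higher in EA1 are themselves fibroblast markers. Col3a1, a fibrillar collagen chain, was at 331, 267, 67.6, 1001 and 303 FPKM in EA1 and 29.4, 1.05, 6.34, 24.4 and 0.548 FPKM in EA2, and Lum, the proteoglycan lumican, at 58.3, 111, 9.82, 446 and 55.1 FPKM in EA1 and at most 0.108 FPKM in EA2. For both, library 4 was the highest and library 3 the lowest of EA1, as in the summed fibroblast markers, a sum that includes both genes and had its lowest value of 359 FPKM in library 3. Acta2, the smooth muscle actin, was at 75, 57.1, 13.7, 106 and 57.4 FPKM in EA1 and 1.21, 3.72, 3.25, 4.24 and 1.24 FPKM in EA2, again with library 4 the highest and library 3 the lowest of EA1. Of the 15 fibroblast markers 6 were called higher in EA1 and none higher in EA2, while Col1a1, Col1a2 and Dcn were not called. Of 17 collagen chains 4 were called higher in EA1 and none higher in EA2, and of the 13 with at least 1 FPKM in all 10 libraries 1 was called. The part of host fibroblasts in the fibroblast markers and collagen chains was not tested.

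Some factors of the complement and coagulation systems were called higher in EA1. Complement marks targets for uptake or lysis, and coagulation forms fibrin. Of 18 complement genes that entered, 6 were called higher in EA1 and none higher in EA2, with a median of 1.03. Among the 8 with at least 1 FPKM in all 10 libraries, 2 were called higher in EA1, with a median of 1.17. Clu, the gene of the complement inhibitor and chaperone clusterin, was at 5630.1, 7415, 7449.9, 1101 and 4856 FPKM in EA1 and 23.7, 87.8, 240.5, 125 and 5.35 FPKM in EA2. Its 5 and 5 libraries did not overlap, although each line spread over a wide range. Cfi, the protease that inactivates C3b and C4b, was at 123, 133, 113, 22.5 and 95.4 FPKM in EA1 and 0.0566, 0.764, 0.586, 1.85 and 0 FPKM in EA2.

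The genes of the fibrinogen chains, Fga, Fgb and Fgg, were high in EA1 in a common order of libraries. Fgb was at 1814, 709.5, 679.8, 179 and 821 FPKM in EA1 and 1.8, 26.8, 38.4, 44.5 and 0 FPKM in EA2, and library 1 was the highest and library 4 the lowest of EA1 for all 3 chains. The differences were 6.54 ± 0.76, 6.08 ± 1.24 and 4.41 ± 0.67. F3, the tissue factor that starts coagulation, was more even, at 54.9, 46.2, 55.6, 64 and 45.4 FPKM in EA1 and 1.42, 0.472, 1.45, 3.87 and 0.687 FPKM in EA2. Of 19 genes of coagulation and fibrinolysis 6 were called higher in EA1 and 1 higher in EA2. Among the 9 with at least 1 FPKM in all 10 libraries, 1 was called higher in each line.

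Growth factors and their receptors differed in a few members. Of 41 ligands 8 were called higher in EA1 and 1 higher in EA2. Among the 21 with at least 1 FPKM in all 10 libraries, none was called higher in EA1 and 1 higher in EA2. The median of these 21 was −0.28, against 0.75 for the 41. Igf2, the fetal growth factor, was at 83.9, 109.7, 112, 49.4 and 104 FPKM in EA1 and at most 0.211 FPKM in EA2, and Gas6, the ligand of the TAM receptors, at 54.6, 75.7, 60.8, 51.9 and 64.1 FPKM in EA1 and at most 0.611 FPKM in EA2. The ligand called higher in EA2 was Pgf, the placental growth factor, at 1.02, 2.45, 1.34, 3.28 and 2.07 FPKM in EA1 and 20.3, 43.5, 23.7, 12 and 11.1 FPKM in EA2. Among 25 receptor tyrosine kinases 4 were called higher in EA1 and 1 higher in EA2. None of the 15 with at least 1 FPKM in all 10 libraries was called. Erbb3 was at 32.7, 41.3, 30.1, 8.95 and 27.5 FPKM in EA1 and 0.567, 0.838, 0.482, 2.74 and 0.147 FPKM in EA2. Egfr, its family member, was at 14, 14, 14.7, 13.3 and 17.6 FPKM in EA1 and 2.58, 0.535, 2.6, 8.11 and 3.33 FPKM in EA2, and its difference of 2.15 ± 0.41 fell to 1.83 without EA2 library 2, below the size required for a call.

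Interleukins and chemokines were represented on both sides. Il33, an alarmin cytokine released from damaged epithelial cells, was at 153, 108, 104, 148 and 132 FPKM in EA1 and 18.5, 11.2, 34.5, 17 and 2.42 FPKM in EA2. It was the only called gene of EA1 that was called the opposite way in vitro, with 9.47 ± 1.68 FPKM (SD, n = 5) in EA1 and 85.9, 89.7 and 26.8 FPKM in the 3 EA2 libraries. Il1rn, the antagonist of the interleukin 1 receptor, was at 18, 63.5, 50.7, 12.8 and 35.6 FPKM in EA1 and 0.489, 0.329, 1.01, 2.32 and 1.44 FPKM in EA2. Conversely Il1rap, the accessory chain of that receptor, was at 0.774, 0.549, 0.623, 0.729 and 0.74 FPKM in EA1 and 15.6, 13.6, 13.8, 17.6 and 27.3 FPKM in EA2. Cxcl17, a chemokine of mucosal epithelium, was at 98.5, 152, 120.2, 21.7 and 88.8 FPKM in EA1 and 4.54, 4.39, 8.07, 4.67 and 3.06 FPKM in EA2.

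Of 21 amino acid stress genes 2 were called higher in EA2, Cebpb and Slc7a11, and 1 higher in EA1, Atf3. Atf3, a stress-induced leucine zipper factor, was at 31.4, 61.4, 31.4, 26.5 and 55 FPKM in EA1 and 10, 4.52, 9.34, 4.36 and 12.7 FPKM in EA2. Cebpb, a leucine zipper factor of stress and inflammation, was at 26.3, 30, 24.8, 21.1 and 31.8 FPKM in EA1 and 223, 185, 147, 238 and 221 FPKM in EA2. Slc7a11, the cystine transporter, was at 0.436, 0.599, 0.809, 0.583 and 0.564 FPKM in EA1 and 8.76, 9.25, 7.68, 5.53 and 3.9 FPKM in EA2, although the cultured lines did not differ by more than 0.06. Igf2bp1, a fetal RNA-binding protein, was at or below 0.019 FPKM in EA1 and at 7.99, 3.73, 5.94, 6.36 and 5.91 FPKM in EA2. Tnfrsf26, a decoy receptor of the TNF family, was at 0.919, 0.657, 0.713, 0.255 and 0.485 FPKM in EA1 and 35.6, 36, 42.8, 44 and 37.9 FPKM in EA2.

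**Figure D3:**
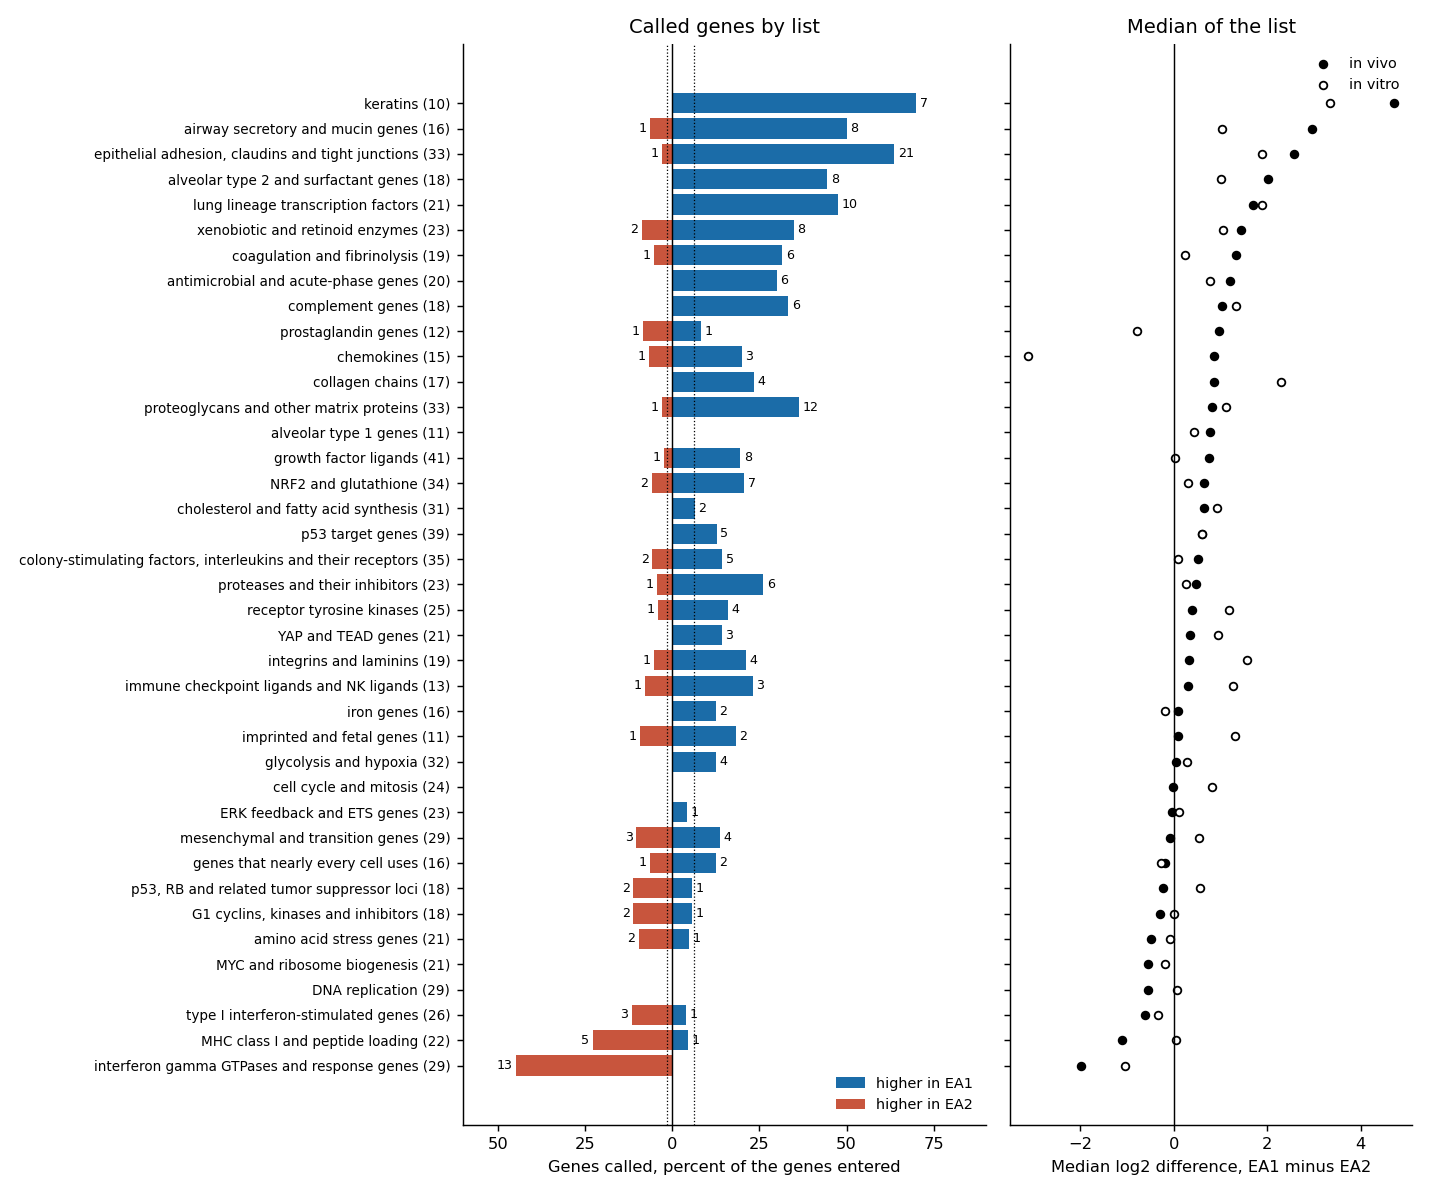
Gene lists with at least 10 genes entered, ordered by their median difference, with the number of genes entered in parentheses. Left, the percentage of each list called higher in EA1 (blue, right of 0) or EA2 (red, left of 0), with the count at the bar and dotted lines at the 6.21% and 1.54% of all genes; right, the median difference in vivo (filled) and in vitro (open), where the interferon gamma list has the lowest in vivo median, −1.99.

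The interferon gamma genes were the group with the most calls toward EA2. Of 29 listed GTPases and response genes that entered, 13 were called higher in EA2 and none higher in EA1. The median difference was −1.99, and 27 of the 29 differences were negative. Among the 18 with at least 1 FPKM in all 10 libraries, 7 were called higher in EA2, with a median of −1.81. The called genes were Gbp2, Gbp3, Gbp4, Gbp6, Gbp7, Irgm2, Igtp, Tgtp1, Tgtp2, Ido1, Psmb8, Psmb9 and Upp1, of which Gbp6, Tgtp1 and Tgtp2 have a near-identical copy. The last of the 13, Upp1, encodes uridine phosphorylase and was higher in EA2 in vitro as well, whereas the others are guanylate-binding proteins, immunity-related GTPases, the tryptophan-degrading enzyme Ido1 and subunits of the immunoproteasome.

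Gbp2 (chr3:142620602-142638008), a guanylate-binding protein, was at 7.26, 3.84, 4.29, 23.9 and 4.34 FPKM in EA1 and 254, 254, 106, 126 and 253 FPKM in EA2. Library 4 was the highest of EA1 and libraries 3 and 4 were the lowest of EA2, and the groups did not overlap. Igtp, an immunity-related GTPase, was at 3.87, 2.97, 3.86, 11.5 and 3.76 FPKM in EA1 and 77, 93.3, 36.5, 49.9 and 75.4 FPKM in EA2, in which libraries 3 and 4 were again the lowest. The differences were −4.46 ± 0.52 and −3.39 ± 0.38.

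Both genes were low in culture. Gbp2 was at 0.244 ± 0.0651 FPKM (SD, n = 5) in cultured EA1 and 1.61, 1.24 and 1.27 FPKM in cultured EA2, and Igtp at 0.225 ± 0.0888 FPKM (SD, n = 5) and 0.753, 0.47 and 0.466 FPKM. Within each line limma tested the change from culture to tumor. Gbp2 rose in EA1 by 2.64 on the log2(FPKM + 1) scale (limma, adjusted p = 9.9e-05) and in EA2 by 6.30 (limma, adjusted p = 9.8e-07). Igtp rose by 2.20 in EA1 (limma, adjusted p = 2.2e-05) and by 5.36 in EA2 (limma, adjusted p = 1.3e-06). These changes rest on the same in vivo libraries as the comparison of the lines, and whether they differ between the lines was not tested.

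Antigen presentation on MHC class I followed in part. Of 22 genes of MHC class I and peptide loading, 5 were called higher in EA2 and 1 higher in EA1. At least Psmb8 among these 5 is also 1 of the 13 called genes of the interferon gamma list, so the 2 counts share members. Among the 16 with at least 1 FPKM in all 10 libraries, 4 were called higher in EA2. B2m (chr2:122147686-122153083), the light chain of every class I molecule, was at 377, 308, 320.0, 749 and 376 FPKM in EA1 and 3199.8, 4444, 2493, 2123 and 5296 FPKM in EA2. Library 4 was the highest of EA1 and the lowest of EA2. Psmb8, a catalytic subunit of the immunoproteasome, was at 11.9, 6.97, 8.63, 24.2 and 8.91 FPKM in EA1 and 126, 236, 76.2, 57.6 and 113 FPKM in EA2. Tap1, of the transporter that carries peptides into the endoplasmic reticulum, was at 6.79, 4.33, 4.74, 13.3 and 5.26 FPKM in EA1 and 57.4, 79.2, 34.3, 25.5 and 54.7 FPKM in EA2. The classical heavy chains H2-K1 and H2-D1 differed by −1.25 ± 0.36 and −1.12 ± 0.29, with overlapping libraries, and were not called.

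All 3 of these named loading genes rose in both lines from culture to tumor. B2m rose by 1.32 in EA1 (limma, adjusted p = 1.8e-04) and by 3.73 in EA2 (limma, adjusted p = 1.9e-05). Psmb8 rose by 3.43 in EA1 (limma, adjusted p = 6.8e-07) and by 6.71 in EA2 (limma, adjusted p = 1.5e-06). Tap1 rose by 2.12 in EA1 (limma, adjusted p = 1.2e-05) and by 5.53 in EA2 (limma, adjusted p = 1.6e-06).

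The gene called higher in EA1 was H2-Q10, a secreted class I molecule, at 10.4, 4.39, 5.43, 4.62 and 6.12 FPKM in EA1 and 0.441, 1.07, 1.23, 0.467 and 0 FPKM in EA2. H2-Q7, a nonclassical molecule with 2 near-identical copies, was at 2.61, 0.779, 3.4, 14.8 and 2.12 FPKM in EA1 and 54, 118, 32.7, 22.2 and 44.5 FPKM in EA2. All 6 MHC class II genes that entered had a negative difference and 1 was called, H2-DMb1, a chain of the chaperone that loads peptides, at 1.54, 1.28, 1.81, 4.79 and 1.48 FPKM in EA1 and 24.5, 31, 10.8, 6.98 and 11.1 FPKM in EA2. Of 26 type I interferon-stimulated genes 3 were called higher in EA2, among them Xaf1 and Zbp1, and Oasl1 was called higher in EA1. Xaf1, an antagonist of inhibitors of apoptosis, was at 0.569, 0.813, 0.609, 1.34 and 0.715 FPKM in EA1 and 43.5, 61.4, 25.8, 24.4 and 39.9 FPKM in EA2. Leukocyte markers moved in both directions beside these genes. The 6 dendritic cell markers summed to 0.594 to 1.69 FPKM in EA1 and 3.23 to 6.41 in EA2 without overlap, the 12 T and NK cell markers to 1.85 to 3.92 and 0.982 to 6.73, and the macrophage sum was given above. The cultured lines differed in these sums as well. The dendritic sum was 0.0132 to 0.064 FPKM in cultured EA1 and 1.55 to 4.19 in cultured EA2. The T and NK sum was 0.156 to 0.193 FPKM in cultured EA1 and 1.94 to 7.14 in cultured EA2. The part of host leukocytes in the interferon and MHC genes was not tested.

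**Figure D4:**
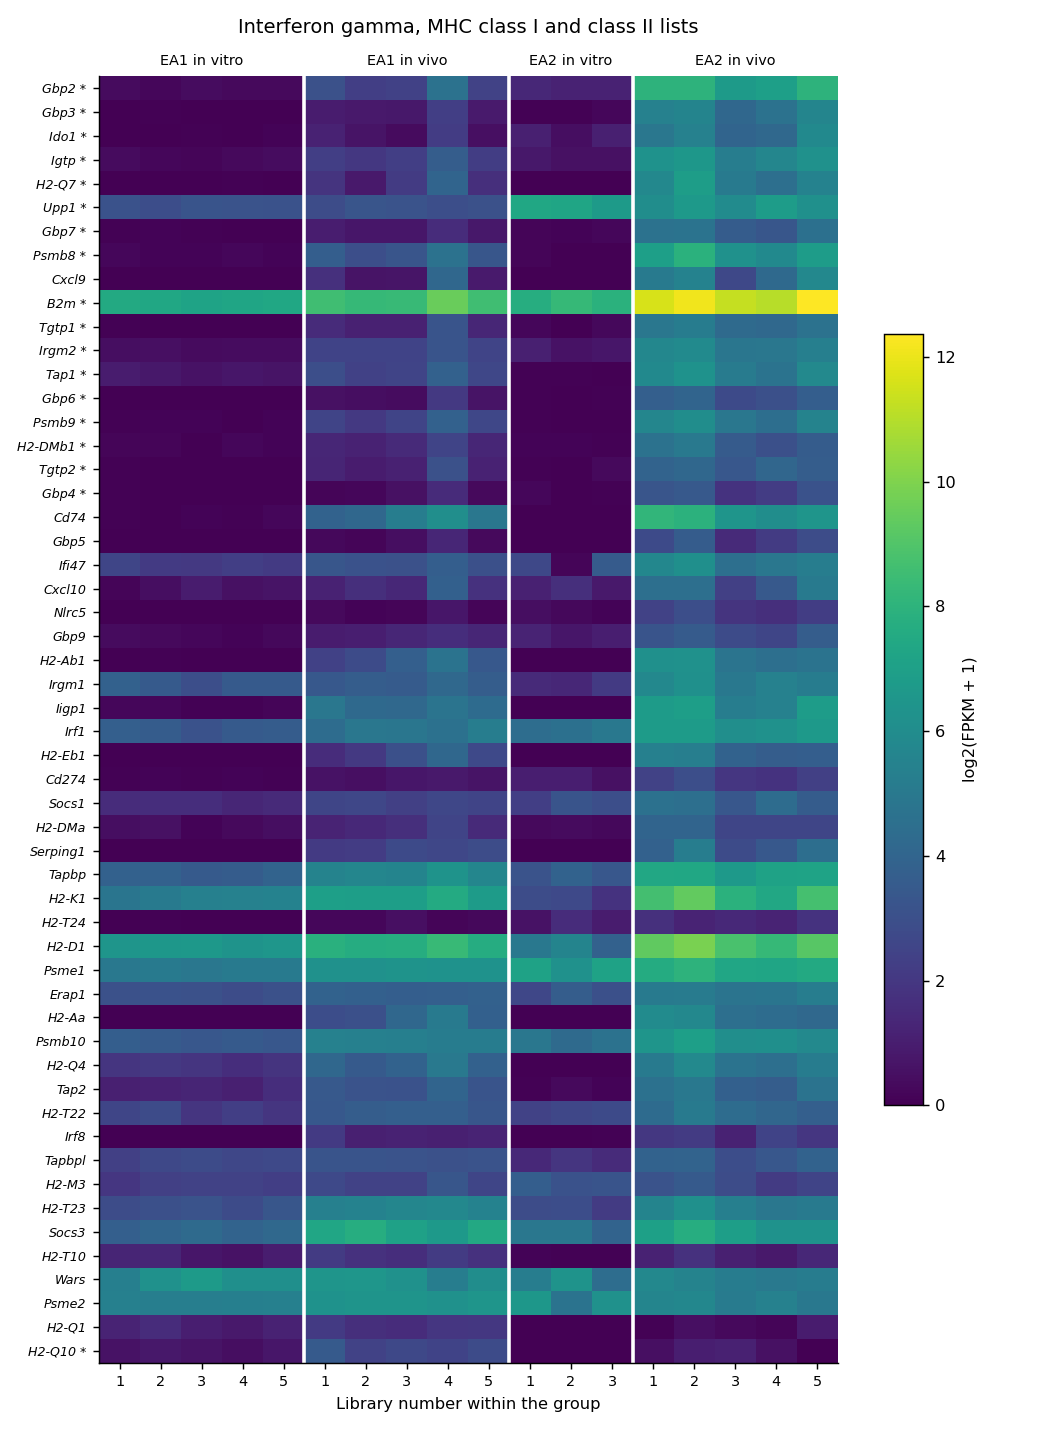
Level of the genes of the interferon gamma, MHC class I and MHC class II lists in all 18 libraries as log2(FPKM + 1), ordered by the difference between the lines in vivo, with an asterisk at called genes. Dark cells are low: most of the listed genes are dark in the 8 in vitro libraries and brightest in the 5 EA2 in vivo libraries, with EA1 in vivo library 4 brighter than the other EA1 libraries for genes such as Gbp2 (23.9 FPKM).

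Promoters of 5 called interferon genes are shown because they share the letters GAAANNGAA, the core of the element bound by interferon regulatory factors. This motif was found on either strand in 7 of the 13 promoters matched for the called genes of the list, or 53.8%, in 13 of the 26 promoters matched for all entered genes of the list, or 50%, in 6.91% of the promoters of all genes entered and in 8.56% of all promoters of the table. Among all genes called higher in EA2 without a copy it was in 13.2% of promoters, and among those called higher in EA1 in 6.94%. The STAT motif TTCNNNGAA was in 46.2% of the 13 promoters, in 38.5% of the 26 and in 6.80% of those of all genes entered. A match describes letters and not binding. Capitals mark GAAANNGAA, or its reverse complement, in Gbp2 (chr3:142620413-142620712), Gbp3 (chr3:142559794-142560093), Gbp7 (chr3:142530086-142530385), Igtp (chr11:58199306-58199605) and Irgm2 (chr11:58214727-58215026), all from RefSeq on GRCm38.p6.
Gbp2: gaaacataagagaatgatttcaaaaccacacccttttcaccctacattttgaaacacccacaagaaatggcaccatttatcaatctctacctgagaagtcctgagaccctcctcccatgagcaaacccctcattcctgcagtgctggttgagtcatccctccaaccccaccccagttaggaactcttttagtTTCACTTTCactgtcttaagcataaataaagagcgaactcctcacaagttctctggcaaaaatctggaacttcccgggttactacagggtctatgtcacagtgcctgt
Gbp3: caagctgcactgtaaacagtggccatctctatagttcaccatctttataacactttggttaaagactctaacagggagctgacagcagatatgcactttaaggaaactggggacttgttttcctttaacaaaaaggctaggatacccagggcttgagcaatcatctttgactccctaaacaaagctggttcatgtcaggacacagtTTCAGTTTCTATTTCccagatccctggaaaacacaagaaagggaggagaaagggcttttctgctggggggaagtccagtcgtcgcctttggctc
Gbp7: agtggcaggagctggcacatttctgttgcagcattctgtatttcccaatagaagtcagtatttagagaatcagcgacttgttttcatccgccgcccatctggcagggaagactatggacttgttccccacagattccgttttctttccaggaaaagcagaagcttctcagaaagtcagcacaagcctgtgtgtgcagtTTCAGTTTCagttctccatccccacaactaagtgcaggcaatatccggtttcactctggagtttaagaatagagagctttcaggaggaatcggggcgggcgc
Igtp: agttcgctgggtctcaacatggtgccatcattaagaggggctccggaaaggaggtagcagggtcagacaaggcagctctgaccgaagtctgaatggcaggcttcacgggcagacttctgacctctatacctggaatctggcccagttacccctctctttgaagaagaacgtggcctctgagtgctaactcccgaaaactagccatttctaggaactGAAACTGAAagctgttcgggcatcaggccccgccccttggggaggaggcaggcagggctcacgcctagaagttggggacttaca
Irgm2: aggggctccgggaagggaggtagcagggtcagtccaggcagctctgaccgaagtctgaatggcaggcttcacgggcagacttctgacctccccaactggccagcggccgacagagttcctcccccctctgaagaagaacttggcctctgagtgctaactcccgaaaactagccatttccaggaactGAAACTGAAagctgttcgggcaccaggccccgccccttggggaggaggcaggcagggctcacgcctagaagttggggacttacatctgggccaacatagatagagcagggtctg
In Gbp3 a pair of overlapping matches gives the longer run of capitals. The windows of Igtp and Irgm2, neighbouring genes on chromosome 11, hold the same letters at the match.

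Proliferation genes gave no calls. None of 24 genes of cell cycle and mitosis, 29 of DNA replication or 21 of MYC and ribosome biogenesis was called in either direction, and their median differences were −0.02, −0.55 and −0.55. The median over all genes entered was 0.07. The libraries did not overlap, with EA2 the higher, for 17 of the DNA replication genes and 13 of the MYC and ribosome biogenesis genes, against 22.4% of all genes entered, and 25 of the 29 and 19 of the 21 differences were negative.

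Separate libraries of the cultured lines were read with the same rule, scaled among themselves. In vitro 399 of 10743 genes, 3.71%, were called higher in EA1 and 648, 6.03%, higher in EA2. The in vitro difference depended on transcript length, with a median of −1.03 in the shortest of 8 length classes and 0.62 in the longest, against 0.17 and −0.18 in vivo, and the 3 EA2 in vitro libraries were uneven, with FPKM sums of 515609 to 729700. Of the 698 genes called higher in EA1 in vivo, 466 entered in vitro, and 215 were called the same way and 1 the opposite way. A further 184 were below 1 FPKM in every in vitro library. Of the 173 called higher in EA2, 140 entered in vitro, and 88 were called the same way and none the opposite way.

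Krt7, Cdh1 and Twist1 were called in the same direction in culture. Krt7 was at 306 ± 11.4 FPKM (SD, n = 5) in cultured EA1 and at most 0.158 FPKM in cultured EA2, and Cdh1 at 204 ± 29.6 FPKM (SD, n = 5) and 7.36, 5.54 and 7.48 FPKM. Twist1 was at 0.134 ± 0.0459 FPKM (SD, n = 5) in cultured EA1 and 31.1, 45.5 and 29.5 FPKM in cultured EA2. From culture to tumor Krt7 changed in EA1 by −0.31 (limma, adjusted p = 0.44), which did not pass and was 0.041 without EA1 in vivo library 4, while Twist1 rose in EA1 by 1.23 (limma, adjusted p = 8.1e-06) and in EA2 by 1.19 (limma, adjusted p = 6.7e-04).

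Other genes were low in cultured EA1 and high in EA1 tumor cells. Within EA1 3459 genes, 30.9%, were higher and 4560, 40.7%, lower in vivo by limma, and within EA2 3643, 32.9%, were higher and 2702, 24.4%, lower. Under median-of-ratios scaling the EA1 counts were 4307 higher and 3617 lower, with the median change of all genes moving from −0.09 to 0.05, so that small changes are not read here. Epcam was at 1.89 ± 0.329 FPKM (SD, n = 5) in cultured EA1 and rose by 5.01 (limma, adjusted p = 2.1e-07). Reg3b rose by 8.73 from 10.5 ± 4.33 FPKM (SD, n = 5), with a limma adjusted p of 1.5e-07. Muc13 rose by 6.57 (limma, adjusted p = 6.8e-08), Tff2 by 7.09 (limma, adjusted p = 1.9e-06), Cfi by 6.19 (limma, adjusted p = 2.7e-07) and Gas6 by 4.74 (limma, adjusted p = 5.3e-10). In EA2 Epcam, Reg3b, Muc13, Tff2, Cfi and Gas6 did not pass the filter on low values.

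Vcan followed this pattern in EA2. It was at 3.46, 6.51 and 5.47 FPKM in cultured EA2 and rose by 3.46 (limma, adjusted p = 2.8e-05). Il33 rose in EA1 by 3.63 (limma, adjusted p = 1.1e-08) and changed by −2.12 in EA2 (limma, adjusted p = 0.018), and the EA2 call was lost without EA2 in vitro library 1, at −1.85, and without EA2 in vitro library 2, at −1.82.

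The small differences over many genes varied with position, by chromosome and also within chromosomes. Among 8569 genes of at least 1 FPKM in all 10 in vivo libraries, the median difference of chromosome 7 was 0.52, with 84.8% of its 611 genes positive. Chromosome 8 had a median of 0.25 over 516 genes. Chromosomes 12, 13, 16, 18 and X had medians of −0.26, −0.32, −0.19, −0.38 and −0.41, while the median over all 8569 genes was 0.00. In vitro the same chromosomes gave 0.63 for 7, 0.43 for 8, −0.13 for 12, −0.25 for 13, −0.36 for 16, −0.13 for 18 and −0.36 for X. With the trend on transcript length and GC content removed the medians of chromosomes 7, 12, 16 and X were 0.45, −0.15, −0.18 and −0.26.

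The strongest run of 50 neighbouring genes lay at the distal end of chromosome 8, from Tldc1 to 2310022B05Rik (chr8:119760076-124663369), with a median of 0.84 in vivo and 1.44 in vitro and 45 of the 50 genes higher in EA1. Parts of other chromosomes were shifted although their whole medians were small. Runs reached −0.53 on chromosome 4 (Tmem68 to Zfp292), −0.57 on 11 (Snrnp25 to Sec24a), and −0.45 (Ap4m1 to Cyth3) and 0.49 (Smim20 to Utp3) on 5. The whole medians of chromosomes 4, 11 and 5 were −0.03, −0.09 and −0.03. Copy number was not measured, and what underlies these medians was not tested.

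Libraries of EA2 also differed among themselves by chromosome, which those of EA1 did not to the same extent. Each library was set against the other libraries of its group. In EA1 in vivo the chromosome medians lay between −0.10 and 0.08, and in EA2 in vivo between −0.35 and 0.39. EA2 library 4 held both extremes, with 0.39 on chromosome 7, where 92.5% of genes were above the other libraries, and −0.35 on chromosome 12. Its medians on chromosomes 4 and 10 were −0.25 and 0.22. Relative to the mean of the 10 in vivo libraries, its chromosome 12 median was −0.145, within the EA1 range of −0.146 to −0.069. EA2 in vivo library 5 was at 0.32 on chromosome 15 and library 2 at 0.26 on chromosome 14. In cultured EA2 the medians lay between −0.19 and 0.26, with library 3 at 0.26 on chromosome 7 and −0.19 on chromosome 12. Without EA2 library 4 the difference between the lines on chromosome 7 was 0.59, and that on chromosome 18 was −0.46.

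**Figure D5:**
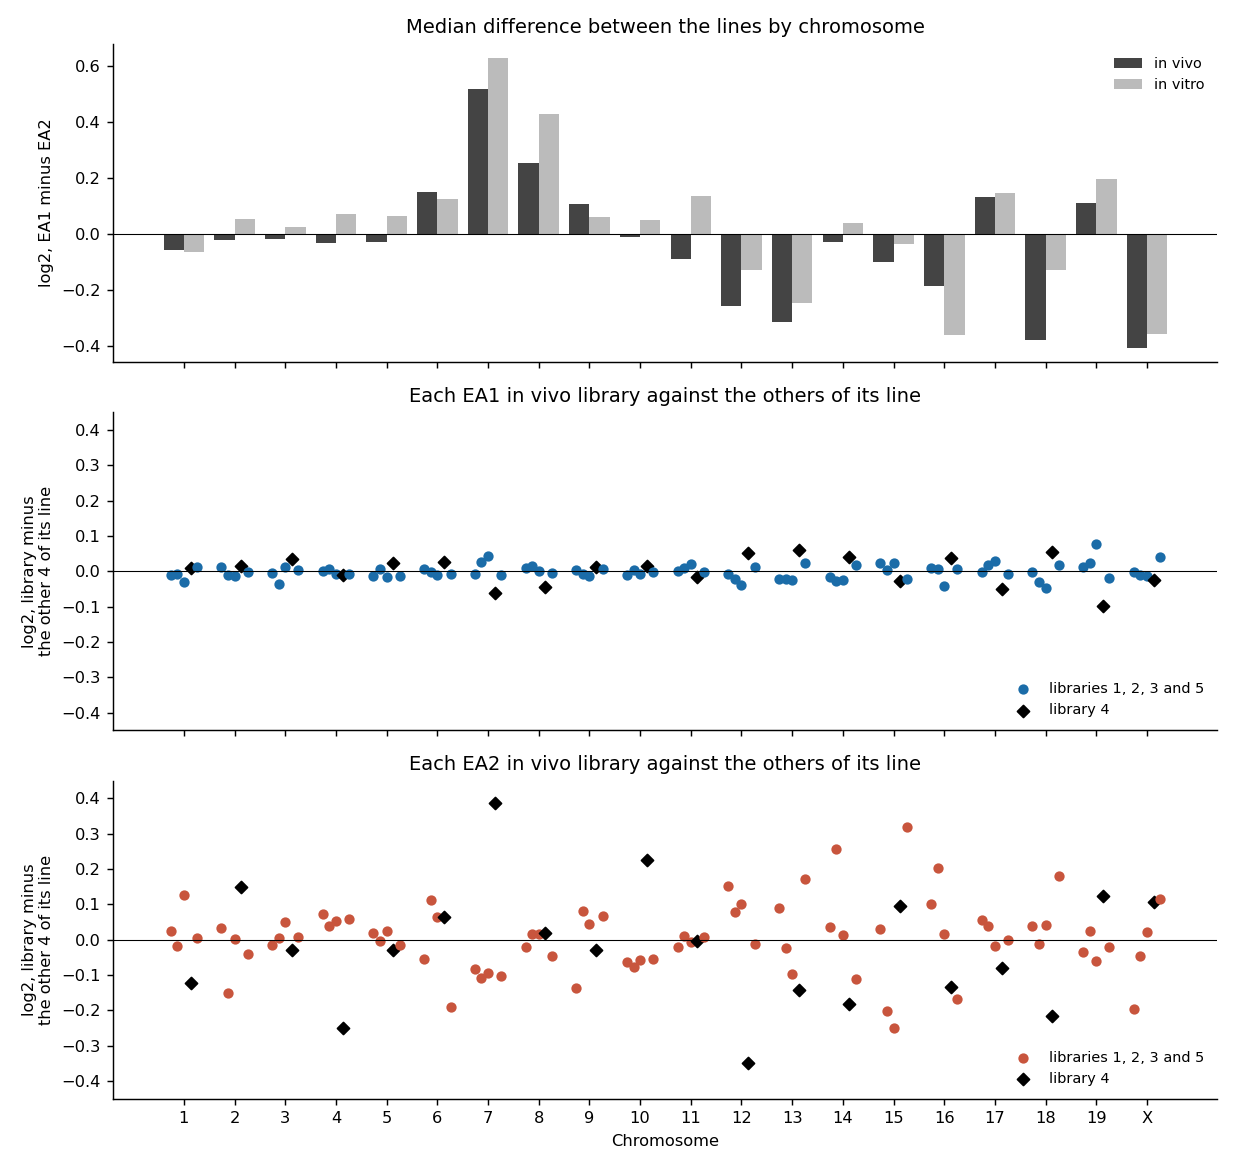
Top, median log2 difference between EA1 and EA2 per chromosome over genes of at least 1 FPKM in all 10 in vivo libraries, in vivo (dark) and in vitro (light). Middle and bottom, median of each EA1 and each EA2 in vivo library minus the other 4 libraries of its line, with library 4 as a black diamond, where EA1 points stay within −0.10 and 0.08 and EA2 library 4 reaches 0.39 on chromosome 7.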

How the data were processed

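Stranded polyA libraries were aligned by the authors to mm10 with STAR and quantified with Cufflinks (2.0.2 in the submitters' processing notes, a later release in the methods), and the authors deposited FPKM per gene in 2 tables, 1 per line. The EA1 table ends at 0.01 and the EA2 table at 0. Removing 6 EA1 entries with status words and 27 EA2 entries with dates as names left 24269 shared genes. FPKM carry no fragment counts, so depth and counting error are unknown. Replicates are separate pools of mice in vivo. In vitro nothing used here says that cultures were separate, so p-values there may measure technical spread.

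Members and 45 gene lists were chosen with earlier results of these data known. Named were fixed genes, the 12 largest differences each way, up to 4 called genes per list and direction, genes off in one line and on in the other, and host cell markers. Mtap, Klhl9, H2-K1, H2-D1, Col1a1, Col1a2, Dcn, further interferon and keratin genes and single genes below the largest of their list were named after their values were seen. Within a line, log2(FPKM + 1) was tested by limma 3.58.1 in R 4.3.3 (trend, two-sided), adjusted by Benjamini-Hochberg at 0.05. Copies were found with minimap2 2.31-r1302. Positions are GENCODE on GRCm38, promoters RefSeq. Scripts ran in Python 3.11.15 with pandas 2.3.3, numpy 2.4.6, matplotlib 3.10.9 and scipy 1.17.1. The call rule and limma were tested on simulated data. Alternatives were other scalings, pseudocounts, filters and sizes, leaving out each library, and the replicate number as a block.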

Additional observations from a re-analysis of the deposited data

Results flagged for a closer look

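Within each group of 5 in vivo libraries, a library was singled out when its gap to the nearest other library was large against the range of the group (Dixon's criterion). This held for 31 of 156 groups over the genes described and for 7 of 40 chromosome groups, where chance alone gives about 1 in 20.

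EA1 library 4 accounted for most of these. It was the lowest EA1 library for Alk (9.61 FPKM), Eml4 (8.78 FPKM), Trp53 (55.5 FPKM), Prom1 (28.8 FPKM), Elf3 (25.6 FPKM), Hnf4a (24.9 FPKM), Reg3b (1040.0 FPKM), Reg3g (373 FPKM), Reg1 (60.1 FPKM), Lgals4 (108 FPKM), Tm4sf4 (54.6 FPKM), Tff3 (10.5 FPKM), Muc13 (44.1 FPKM), Ugt2b34 (30.6 FPKM), Clu (1101 FPKM), Cfi (22.5 FPKM), Erbb3 (8.95 FPKM) and Cxcl17 (21.7 FPKM). It was the highest EA1 library for Vim (2349.5 FPKM), Gbp3 (3.95 FPKM), Igtp (11.5 FPKM), Zbp1 (5.25 FPKM), B2m (749 FPKM) and H2-DMb1 (4.79 FPKM). Its summed fibroblast markers were 3201 FPKM, the highest of EA1, and their part in these values was not tested.

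Other EA1 libraries stood out in single genes. Library 1 was lowest for Irx2 (12.5 FPKM) and library 3 highest for Scgb1a1 (887 FPKM).

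In EA2, Dcxr was lowest in library 1 (1.48 FPKM) and Cdh1 in library 5 (5.05 FPKM). Krt20 (6.26 FPKM) and Fga (5.58 FPKM) were highest in library 4, and Vim (2327 FPKM) in library 1.

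Chromosome medians, each relative to the mean of the 10 in vivo libraries, gave further such libraries. EA2 library 4 was lowest for chromosome 4 (−0.185) and chromosome 12 (−0.145) and highest for chromosome 7 (0.0484) and chromosome 10 (0.196). EA1 library 4 was lowest for chromosome 8 (0.0838) and highest for chromosome 10 (0.0287), and EA1 library 3 was highest for chromosome 3 (0.0225).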

How the results depend on the processing

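Among the named genes that were called and the chromosomes that were recomputed, no difference between the lines changed direction under the alternatives run. For named genes that were not called a change of direction was not recorded. With libraries scaled to an equal sum 312 genes were higher in EA2. By ranks alone, with 20 rank points as the size, 489 of the 698 genes called higher in EA1 kept their call. Of the 173 called higher in EA2, 144 did. Among the named genes that lost it were Trp53, Dcxr, Cdh1, Krt19, Clu, Il33, Egfr, Cebpb, Slc7a11, B2m, H2-Q10, Gapdh, Scgb1a1 and Pecam1. Trp53 differed by 15.8 points and B2m by −0.79. By ranks alone 3 p53 targets were called, and a filter of 5 FPKM left 11 called genes of epithelial adhesion. A difference of at least 1 gave 1313 genes higher in EA1 and 651 higher in EA2, with 20 interferon gamma, 8 MHC class I and 8 p53 target genes, and a difference of at least 3 gave 368 and 67, with 7, 2 and 2, and 11 of epithelial adhesion. Without genes of the cell type lists 4 keratins were called. From FPKM as deposited the medians of chromosomes 8, 12, 13, 18 and X were 0.13, −0.37, −0.44, −0.50 and −0.52, and with the length and GC trend removed, chosen after seeing the data, those of 8, 12 and X were 0.22, −0.15 and −0.26. The causes of these shifts were not tested.

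Leaving out each library in turn gave 682 to 764 genes higher in EA1, 172 to 200 higher in EA2, 12 to 17 interferon gamma genes, 20 to 22 epithelial adhesion genes and −0.46 to −0.36 for chromosome 18. For Pecam1, an endothelial gene at the limit of the call, 5 of the 10 omissions lost the call, with differences down to 1.87.

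Within the lines, no filter gave 5618 genes higher in vivo in EA1, and EA2 in vitro library 2 alone gave 1535 higher and 1632 lower in EA2, with the lone library assumed to vary like the others. Replicate numbers did not pair the libraries, with correlations of −0.13 to 0.08, and the replicate block gave 3342 higher and 4445 lower in EA1, and 3033 and 2124 in EA2 libraries 1 to 3. Cdh1 in EA2 (1.22 by limma) lost its call under most of the alternatives.

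Depth is unknown, and with it the counting error of low values.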

Other observations

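Genes of detoxification were called on both sides. Of 34 NRF2 and glutathione genes 7 were called higher in EA1 and 2 higher in EA2. Both of the latter belong to lists above: Slc7a11 to the amino acid stress genes and Aldh3a1 to the airway genes, as their call toward EA2. Among the 27 with at least 1 FPKM in all 10 libraries, 2 were called higher in EA1 and 1 higher in EA2. Gpx3, a secreted glutathione peroxidase, was at 98.4, 26.5, 51.9, 168 and 42.8 FPKM in EA1 and 0.251, 0.306, 0.446, 3.24 and 0.192 FPKM in EA2. Gpx2, its gastrointestinal relative, has a near-identical copy and was at 11.6, 13.4, 7.32, 1.96 and 9.61 FPKM in EA1 and 0.141, 0, 0, 0.0348 and 0 FPKM in EA2. Of 31 cholesterol and fatty acid genes 2 were called, both higher in EA1, a share close to the 6.21% of all genes entered.

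Across the 20 chromosomes, the medians of EA2 in vivo library 4 against the other EA2 in vivo libraries lined up with those of EA2 in vitro library 3 against the other cultures (Pearson's r = 0.770, Spearman's rho = 0.720). The same medians gave r = −0.799 with in vitro library 1 and r = −0.588 with in vitro library 2. These are descriptions over chromosomes and not over independent samples, and medians within a group are tied to each other by construction. The imprinted RNA H19 was at 21.5 FPKM in EA2 library 4 and at most 0.280 FPKM in the other EA2 in vivo libraries.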
